A study of Rattus norvegicus with 9 samples.

Results

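The smooth muscle and myofibroblast contractile genes are 8 genes, Acta2, Tagln, Cnn1, Myh11, Actg2, Myl9, Lmod1 and Smtn, among the 35843 genes measured. They were taken by gene name, and each name had 1 row in the deposited table. RNA was sequenced from hearts of adult male Sprague-Dawley rats at day 28, with 3 rats in each of 3 groups. Group Sham underwent the operation without ligation and received saline by daily gavage. Group MI had the left anterior descending coronary artery ligated, which infarcts the left ventricle, and also received saline. Group MI + DAPA (1st d) had the same ligation and was given dapagliflozin (DAPA), an inhibitor of the sodium-glucose cotransporter SGLT2, by daily gavage from the first day on. For molecular work the study's methods describe tissue mainly from the infarct border without the scar, and from the matching site in group Sham, but for the sequencing they name the left ventricle and elsewhere infarct myocardium, so the exact site is not settled. The study names 3 biological replicates per group, which are taken here as separate rats. Each sample title holds paired numbers for a rat whose meaning is not given, and 1 value per gene and rat was deposited. The libraries hold all cells of a tissue piece, so fewer cells of a type and less RNA per cell cannot be told apart.

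Smooth muscle contracts when phosphorylated myosin pulls on actin filaments, and most genes of this apparatus are switched on by serum response factor (SRF) with its partner myocardin or the related factor Mrtfa. In a healthy heart the apparatus is found mainly in the walls of coronary vessels. After infarction, fibroblasts in the healing region can turn into myofibroblasts, which take on some of the same proteins, above all the actin encoded by Acta2, while Myh11 and Smtn are regarded as marking mature smooth muscle.

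The deposited values are FPKM, fragments scaled by gene length and a denominator of each library, so levels can be compared between genes. A comparison between rats depends on that denominator, which did not follow the total reads. Relative to the mean of the rats it was 0.69 in Sham replicate 1 with 16899773 reads and 1.28 in MI replicate 1 with 15565791. The whole reads behind them were recovered from the steps in the values and came to 13597239 to 17210909 per rat. Genes of the mitochondrial genome took 61.1% to 66.9% of them in the Sham rats, 7.07% to 19.1% in the MI rats and 17.5% to 32.0% in the DAPA-treated rats. This left 5702454 to 6570698 reads on other genes in a Sham rat, 12635945 to 13171891 in an MI rat and 11440726 to 12082280 in a DAPA-treated rat. The deposited FPKM are already scaled so that a typical gene outside the mitochondrial genome has the same level in every group. The 8 genes held between 107 and 8960 reads per rat, so counting error was at most 9.67% of a value. Of 9 cardiomyocyte markers in the table, all were above 0 in every rat, as the label heart implies, and they summed to between 5839 and 8550 FPKM in the Sham rats.

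SRF binds the CArG box, whose letters are CC, then 6 bases of A or T, then GG. The 250 bases before the transcription start are shown for Acta2, Cnn1 and Smtn, since Acta2 and Cnn1 varied together between rats while Smtn did not. Capitals mark CC, 6 bases of which at least 5 are A or T, and GG, a pattern that reads the same way on both strands. The windows are from RefSeq on rat assembly GRCr8 and are written 5′ to 3′ on the strand of the gene: chr1:241172504-241172753 (minus strand) for Acta2, chr8:28908187-28908436 (plus strand) for Cnn1 and chr14:82644515-82644764 (minus strand) for Smtn.
Acta2: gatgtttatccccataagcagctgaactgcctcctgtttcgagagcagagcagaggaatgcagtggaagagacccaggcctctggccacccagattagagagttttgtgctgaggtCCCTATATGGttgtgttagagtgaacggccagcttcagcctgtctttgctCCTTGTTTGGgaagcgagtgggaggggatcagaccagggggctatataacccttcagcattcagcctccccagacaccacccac
Cnn1: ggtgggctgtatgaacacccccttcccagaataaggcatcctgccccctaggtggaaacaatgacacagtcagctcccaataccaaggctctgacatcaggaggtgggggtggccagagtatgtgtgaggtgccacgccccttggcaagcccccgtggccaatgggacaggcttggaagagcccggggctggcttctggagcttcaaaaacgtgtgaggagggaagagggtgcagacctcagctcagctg
Smtn: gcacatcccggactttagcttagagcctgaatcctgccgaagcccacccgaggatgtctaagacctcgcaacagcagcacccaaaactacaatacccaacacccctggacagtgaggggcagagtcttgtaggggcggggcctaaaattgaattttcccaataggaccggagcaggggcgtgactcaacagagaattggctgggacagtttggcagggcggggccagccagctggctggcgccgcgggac
The Acta2 window held 2 such elements, which begin at -134 and -84 from the start, and each has 5 of 6 inner bases A or T. The Cnn1 and Smtn windows held 0, as did that of Actg2, and 4 of the 8 genes had a window. Of 33365 rat windows with the same 250 bases before and 50 after the start, 9.40% held at least 1 such element and 0.842% held at least 2, while 1.63% held the box with all inner bases A or T. These are matches of letters, and binding was not measured.

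One rat stood apart before any comparison between groups. Sham replicate 2 had the lowest Sham level of 7 of the 8 genes, and 6 of them (Acta2, Tagln, Cnn1, Myh11, Actg2 and Lmod1) lay below 0.5 times both other Sham rats. Among all 14157 genes with FPKM of at least 1 in at least 3 rats, 4.56% lay below 0.5 times both others in that rat, which is close to the 3.41% and 5.12% of Sham replicates 1 and 3. In the lower of the other Sham rats, the 7 genes stood at 1.97 to 5.19 times their level in replicate 2. Smtn went the other way and was highest in that rat. The summed FPKM of the 8 genes was 520.1 in Sham replicate 2 against 1809 and 1502 in the other Sham rats, and it lay between 697.3 and 926.7 in the MI rats and between 685.9 and 940.4 with DAPA.

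**Figure D1:**
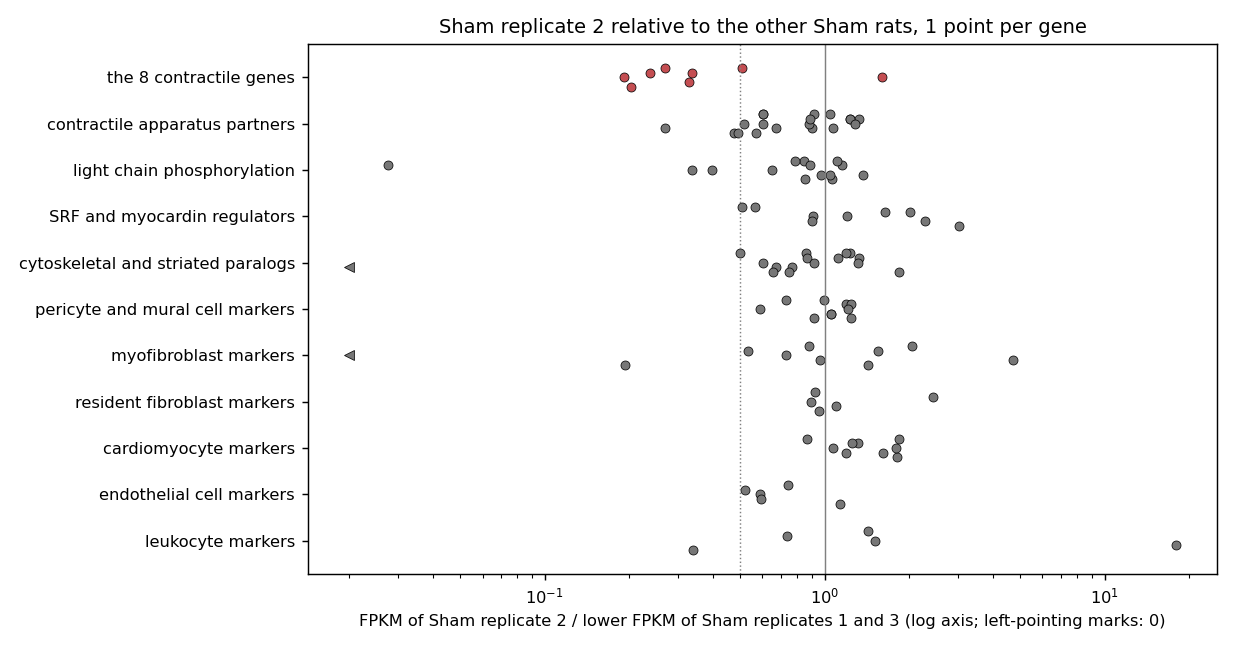
FPKM of Sham replicate 2 divided by the lower of Sham replicates 1 and 3 (log axis), 1 point per gene, for the 8 contractile genes (red) and 10 other gene lists (grey), where left-pointing marks are genes at 0 in that rat. The 8 genes lie to the left of 1 except Smtn, and 6 lie left of the dotted line at 0.5, as do a few partners, phosphorylation genes, myofibroblast and leukocyte markers and 1 paralog, while no regulator and no pericyte, resident fibroblast, cardiomyocyte or endothelial marker does.

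Some other genes of the contractile machinery were also low in this rat. Among the partners of the contractile apparatus 13 were the lowest of the Sham rats there, while others, such as Ilk and Vcl, were the highest. Of 20 partners of the contractile apparatus, 3 lay below 0.5 times both other Sham rats: Tpm2, a tropomyosin that lies along actin filaments, Flna, which crosslinks actin, and Itga8, an integrin. Among 14 genes that set light chain phosphorylation and calcium sensitivity, Ppp1r12b, Kcnma1 and Kcnmb1 did so, the last pair being subunits of the large-conductance potassium channel of smooth muscle. These genes were picked after their values were seen. Below that level were also 2 of 10 myofibroblast markers (Cthrc1 and Comp), 1 of 5 leukocyte markers (Cd79b) and 1 of 19 paralogs (Lmod2). Several of these genes were near the floor. Kcnma1 had 0.97, 0.020 and 0.74 FPKM in Sham replicates 1, 2 and 3, and Lmod2 had 0.043, 0 and 1.12. Both were too low to be among the 14157 genes behind the 4.56%. Cthrc1, Comp and Cd79b had at most 1.97 FPKM in any Sham rat. Pericyte and mural cell markers gave 0 of 10, resident fibroblast markers 0 of 5, cardiomyocyte markers 0 of 9, regulators 0 of 9 and endothelial markers 0 of the 5 with a value. The summed pericyte and mural cell markers were 316.1 FPKM in Sham replicate 2 and 301.1 and 301.3 in the others, and the endothelial markers summed to 758.3 against 816.8 and 841.5. Most of the endothelial sum was Egfl7, a secreted endothelial factor, which was highest in this rat at 549 FPKM, while the other 4 endothelial markers were lowest there, Kdr at 0.52, Tek at 0.59, Vwf at 0.59 and Cdh5 at 0.74 times the lower of the other Sham rats. The low levels in this rat were therefore not limited to contractile genes. The tissue composition of this rat was not tested further, and the comparisons of the 8 genes with group Sham are given with and without it.

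The actins come first. Acta2, the smooth muscle alpha-actin, had 513, 118 and 437 FPKM in Sham replicates 1, 2 and 3, 272, 219 and 198 FPKM in the MI rats, and 261, 161 and 253 FPKM with DAPA. Sham replicates 1 and 3 lay above all 6 infarcted rats and Sham replicate 2 lay below all of them, so the groups overlapped. Group Sham averaged 356 ± 209.8 FPKM, group MI 229.8 ± 37.9 and the DAPA-treated group 225 ± 56.0 (SD, n = 3). Actg2, the gamma-actin of visceral smooth muscle, had 67.2, 12.2 and 59.9 FPKM in the Sham rats, 33.6, 27.7 and 23.4 in the MI rats, and 32.0, 18.7 and 24.1 with DAPA. It showed the same arrangement as Acta2, at a level about 3 log2 units lower in each rat, the log2 ratio of Actg2 to Acta2 lying between -3.34 and -2.85. Actin genes have similar coding sequences, and how reads matching several of them were counted is not given in the sources used here.

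Of the actin-binding proteins, Tagln and Cnn1 followed the same pattern, and Lmod1 and Smtn departed from it. Tagln, which encodes the SM22-alpha protein on actin bundles, was the most abundant of the 8 genes in 8 of 9 rats, with 683, 131 and 548 FPKM in the Sham rats, 314, 254 and 216 in the MI rats, and 339, 207 and 237 with DAPA. Cnn1, calponin 1, which restrains myosin activity on actin, had 44.7, 6.95 and 36.0 FPKM in the Sham rats, 23.9, 17.6 and 23.8 in the MI rats, and 26.1, 22.7 and 18.4 with DAPA. For both genes Sham replicates 1 and 3 were the highest of all rats and Sham replicate 2 the lowest. Lmod1, leiomodin 1, which starts new actin filaments, was the least abundant gene in every rat, with 13.5, 3.27 and 9.69 FPKM in the Sham rats, 11.0, 7.05 and 7.96 in the MI rats, and 7.74, 6.90 and 7.53 with DAPA. In Lmod1 the MI replicate 1 value exceeded that of Sham replicate 3, so even the 2 higher Sham rats overlapped with group MI.

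Smtn differed most. It encodes smoothelin, an actin-binding protein of contractile smooth muscle, and it had 63.7, 102 and 82.3 FPKM in the Sham rats, 29.0, 15.8 and 24.1 in the MI rats, and 24.1, 39.5 and 24.8 in the DAPA-treated rats. Every Sham rat lay above every infarcted rat, while the MI and DAPA-treated rats overlapped. Group Sham averaged 82.6 ± 19.1 FPKM, group MI 23.0 ± 6.65 and the DAPA-treated group 29.5 ± 8.67 (SD, n = 3). The share of all genes without overlap in this direction was 27.5% in MI vs. Sham and 23.3% in MI + DAPA vs. Sham, with 27.1% and 23.2% in the other direction, so 1 of 8 is below these shares.

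The myosin genes had the pattern of the actins. Myh11, the smooth muscle myosin heavy chain, had 116, 35.9 and 109.8 FPKM in the Sham rats, 53.8, 42.3 and 43.7 in the MI rats, and 61.0, 42.8 and 54.1 with DAPA. Myl9, the regulatory light chain whose phosphorylation triggers contraction, had 308, 111 and 219 FPKM in the Sham rats, 189, 162 and 160.1 in the MI rats, and 189, 187 and 161 with DAPA. Sham replicates 1 and 3 again lay above all infarcted rats for both genes, and replicate 2 below all of them. Myl9 was the steadiest of the more abundant genes after infarction, with a coefficient of variation of 9.64% in group MI and 8.61% with DAPA.

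**Figure D2:**
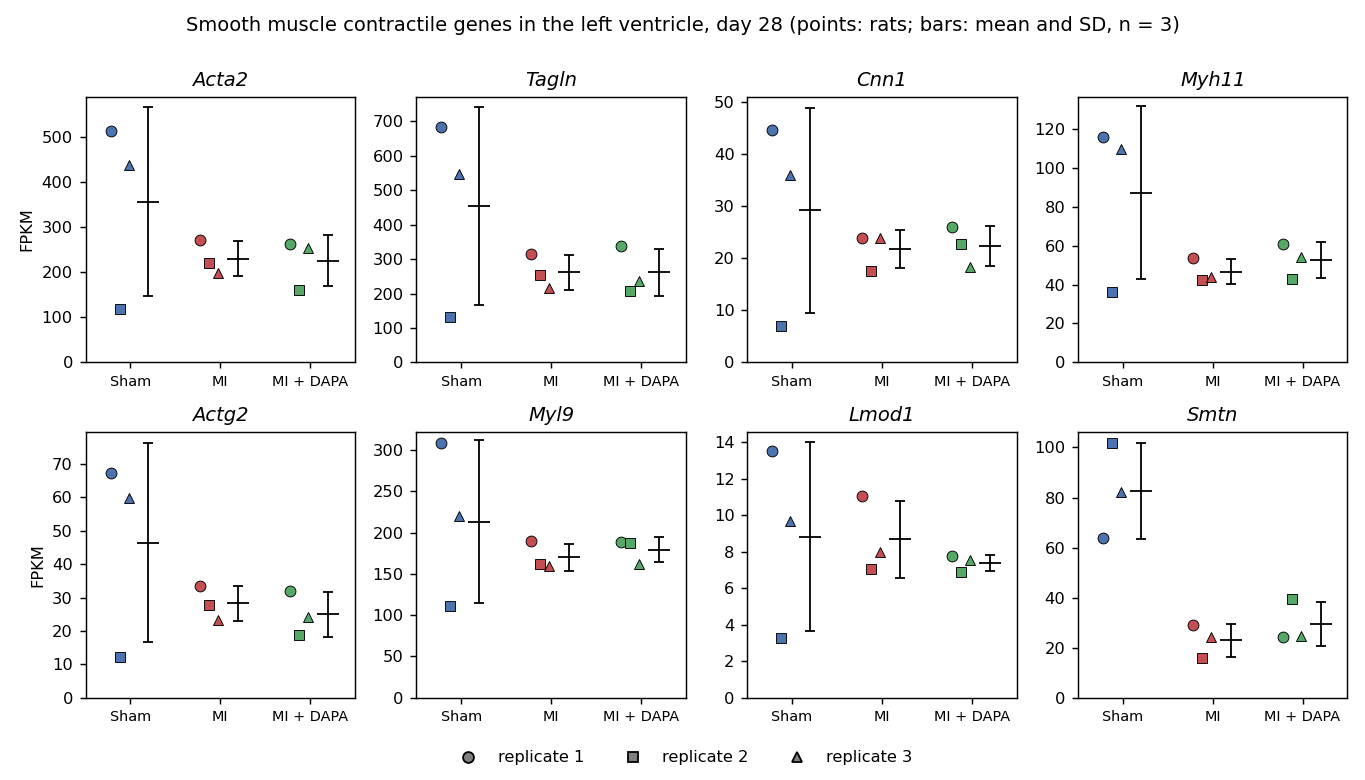
FPKM of each of the 8 genes in each rat (circle, square and triangle for replicates 1, 2 and 3; linear axes from 0), with the group mean and SD (n = 3) as a bar. Sham replicate 2 is the lowest of all 9 rats for every gene but Smtn, which is above the infarcted rats in all 3 Sham rats.

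In order of level, Tagln, Acta2, Myl9 and Myh11 led in that order in all 3 MI rats, in Sham replicates 1 and 3 and in DAPA replicate 1. In Sham replicate 2, Smtn stood above Myh11. Myl9 passed Acta2 in DAPA replicate 2, and Acta2 was first in DAPA replicate 3. Tagln lay above Acta2 in every Sham and MI rat by a small log2 ratio, 0.29 ± 0.13 in Sham rats and 0.18 ± 0.051 in MI rats (SD, n = 3). In DAPA-treated rats the ratio was 0.22 ± 0.27 (SD, n = 3), which did not separate the 2 genes. Actg2, Cnn1 and Smtn changed places between rats, so their order was not separable in the infarcted groups. The spread between Sham rats was unusual for these genes: the SD of log2(FPKM + 1) had a median of 1.05 over the 8 genes against 0.26 over all 14157 genes, while it was 0.25 against 0.21 in the MI rats and 0.31 against 0.25 with DAPA.

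The comparison of group MI with group Sham asks how infarction changed these genes in the tissue sampled. Smtn was the gene of the 8 called lower in group MI, by a log2 fold change of -1.82 (SE 0.26, limma with Benjamini-Hochberg adjusted p = 0.0029), where a call needs limma's p before adjustment to be under 0.05 and the log2 fold change on log2(FPKM + 1) to pass 1 in size. The other 7 genes were not called, with log2 fold changes between -0.72 (Myh11) and 0.13 (Lmod1). Of all 13485 genes tested, 22.4% were called, 10.3% as lower and 12.1% as higher, so 1 of 8 is near that share. The median log2 fold change was -0.39 over the 8 genes and -0.0050 over all genes. The 95% intervals of the 7 genes were wide, from -1.63 to 0.85 for Acta2, from -1.88 to 0.87 for Tagln, from -1.53 to 1.37 for Cnn1 and from -1.73 to 0.29 for Myh11, and they passed a log2 fold change of 1 in both directions for Cnn1 and Actg2, upwards for Lmod1 and downwards for the other 4.

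The outcome of this comparison rested on Sham replicate 2. Without it, 5 genes were called lower in group MI: Acta2 by -1.05 (SE 0.20), Tagln by -1.24 (SE 0.23), Myh11 by -1.27 (SE 0.16), Actg2 by -1.16 (SE 0.19) and Smtn by -1.66 (SE 0.28), all as log2 fold changes from limma. Cnn1 stood at -0.87, Myl9 at -0.61 and Lmod1 at -0.39 in that fit and were not called. With that rat left out 20.7% of all genes were called and 8.59% were lower. This leaves 2 Sham rats, and the choice of the rat was made after seeing its values. The scale mattered as well. When FPKM were rescaled to all recovered reads, mitochondrial ones included, the median of all genes moved to 0.92, 7 of the 8 genes had positive log2 fold changes, Lmod1 was called higher at 1.09, and Smtn at -0.73 was no longer called. The 8 genes had a median of 0.70 on that scale, where 44.7% of all genes were called higher and 2.11% lower, so 1 of 8 is below the share called higher. With that scale and without Sham replicate 2, 0 of the 8 genes were called by limma, where 46.7% of all genes were called higher and 1.59% lower.

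Scaled to the same number of all recovered reads, as reads per 1000000 reads, Acta2 took 442, 98.5 and 311 in the Sham rats, 469, 396 and 329.7 in the MI rats, and 372, 213 and 435 with DAPA. On this scale the groups overlapped for Acta2 throughout, also with Sham replicate 2 set aside. Smtn took 131, 202 and 139 reads on this scale in group Sham and 119, 67.9 and 95.2 in group MI. Its Sham rats therefore lay above the MI rats on both scales.

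**Figure D3:**
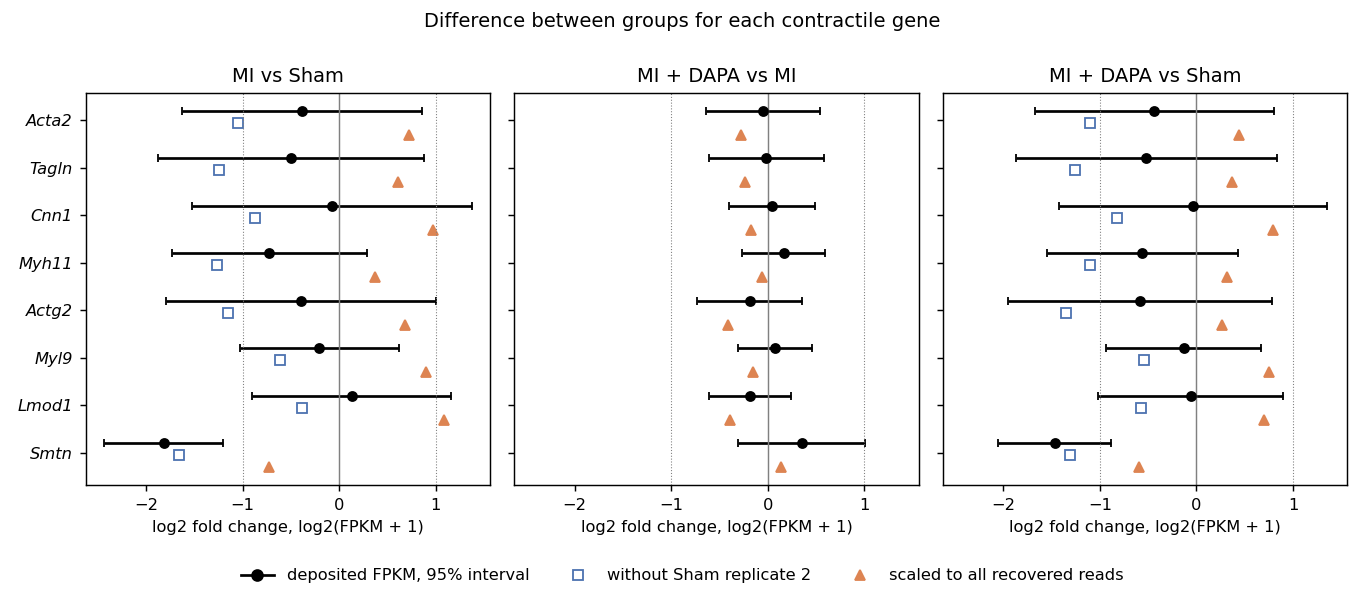
Log2 fold changes on log2(FPKM + 1) in the 3 comparisons for the 8 genes, with 95% intervals from limma for the deposited FPKM (black), and with the values without Sham replicate 2 (open squares) and after scaling to all recovered reads (triangles). Dotted lines mark log2 fold changes of -1 and 1; Smtn is below -1 in both comparisons with group Sham on the deposited scale, and in MI + DAPA vs MI all values lie within the dotted lines.

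The comparison of group MI + DAPA (1st d) with group MI asks whether treatment changed these genes after infarction. None of the 8 genes, 0 in either direction, was called by limma, where 2.06% of 13251 genes were (1.11% lower and 0.951% higher), and 0 of the 8 had an unadjusted p under 0.05, where 8.49% of all genes did. The rats of both groups overlapped for each of the 8 genes, and of all genes 6.63% and 7.16% were higher and lower without overlap. The log2 fold changes ran from -0.19 (Actg2) to 0.35 (Smtn), with a median of 0.012 over the 8 genes and -0.018 over all genes. This comparison does not involve Sham replicate 2, and the intervals of the 7 genes other than Smtn were narrower than in MI vs. Sham. For Myl9 the log2 fold change was 0.07 with a 95% interval from -0.31 to 0.46, for Cnn1 0.04 with an interval from -0.41 to 0.49, and for Acta2 -0.05 with an interval from -0.64 to 0.54. The intervals of 7 of the 8 genes lay within log2 fold changes of -1 and 1. For Smtn the interval ran from -0.31 to 1.01, with DAPA replicate 2 at 39.5 FPKM above all MI rats and the other DAPA-treated rats within their range. Leaving out any 1 of the 6 rats called 0 of the 8 genes, where 0.858% to 4.35% of all genes were called.

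The DAPA-treated rats were also compared with group Sham, which uses the same 3 Sham rats as above. Smtn was lower with a log2 fold change of -1.47 (SE 0.25, limma with Benjamini-Hochberg adjusted p = 0.0066), and the other 7 genes were not called, at -0.58 (Actg2) to -0.04 (Cnn1). In this comparison 17.7% of 13359 genes were called, 8.16% as lower and 9.54% as higher. Without Sham replicate 2, Acta2 (-1.10), Tagln (-1.26), Myh11 (-1.10), Actg2 (-1.34) and Smtn (-1.30) were called lower, with 16.4% of all genes called. Scaled to all recovered reads, 0 of the 8 were called by limma, where 35.5% of all genes were. On that scale 7 had positive values against a median of 0.74 over all genes.

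Ratios of 2 genes within a rat do not depend on how the libraries were scaled, apart from the pseudocount of 1. Of 11 ratios in 3 comparisons, the smallest possible two-sided exact permutation p with 3 rats against 3 is 0.1, and adjusted over the 33 tests it was 0.33, so none could pass. Among the 8 genes themselves the ratio of Myh11 to Acta2 did not overlap between group MI (-2.27 ± 0.10, SD, n = 3) and group Sham (-1.94 ± 0.23, SD, n = 3), a difference of -0.34 log2 units, which was -0.21 without Sham replicate 2. The ratio of Lmod1 to Acta2 was higher in all MI rats than in all Sham rats, at -4.58 ± 0.17 against -5.10 ± 0.28 (SD, n = 3). That difference was 0.52 log2 units, and 0.67 without Sham replicate 2. The ratios of Tagln, Cnn1, Actg2, Myl9 and Smtn to Acta2 overlapped between these groups, and without Sham replicate 2 those of Tagln (a difference of -0.19), Actg2 (-0.10) and Myl9 (0.44) did not. With 2 Sham rats left, groups separate by chance more often than with 3 against 3, so little rests on this. In MI + DAPA (1st d) vs. MI all 11 ratios overlapped.

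In the ratios to Rgs5 and Postn the Sham rats lay apart from all infarcted rats. Rgs5 is 1 of 10 pericyte and mural cell markers and had the largest log2 fold change among them, while the median of that list was 0.015 and Higd1b was called lower, so a ratio to Rgs5 is a ratio to that gene and not to pericytes. Rgs5, a G protein signalling regulator of pericytes, had 46.6, 36.7 and 36.9 FPKM in the Sham rats, 225, 163 and 165 in the MI rats, and 197, 140.4 and 277 with DAPA. It was higher in group MI by a log2 fold change of 2.17 (limma with Benjamini-Hochberg adjusted p = 9.5e-04). The log2 ratio of Acta2 to Rgs5 was 3.43, 1.66 and 3.53 in the Sham rats, 0.27, 0.43 and 0.26 in the MI rats, and 0.41, 0.19 and -0.13 with DAPA. All Sham rats, replicate 2 included, lay above all infarcted rats in this ratio, and group MI was lower than group Sham by 2.55 log2 units (exact permutation p = 0.1), or by 3.16 without Sham replicate 2. Myh11 to Rgs5 differed by -2.89 in the same way, and by -3.37 without that rat. Acta2 to Postn, the periostin of activated fibroblasts, stood at 5.66 ± 1.80 in the Sham rats, 0.46 ± 0.65 in the MI rats and 1.01 ± 0.34 with DAPA (SD, n = 3), and the Sham rats did not overlap with the others (exact permutation p = 0.1 for each, the smallest possible). Postn itself had 27.4, 2.38 and 1.16 FPKM in the Sham rats and 196, 251 and 92.3 in the MI rats, and was higher in group MI by 4.82. Rgs5 and Postn were thus called higher on the deposited scale, where Acta2 was not called.

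**Figure D4:**
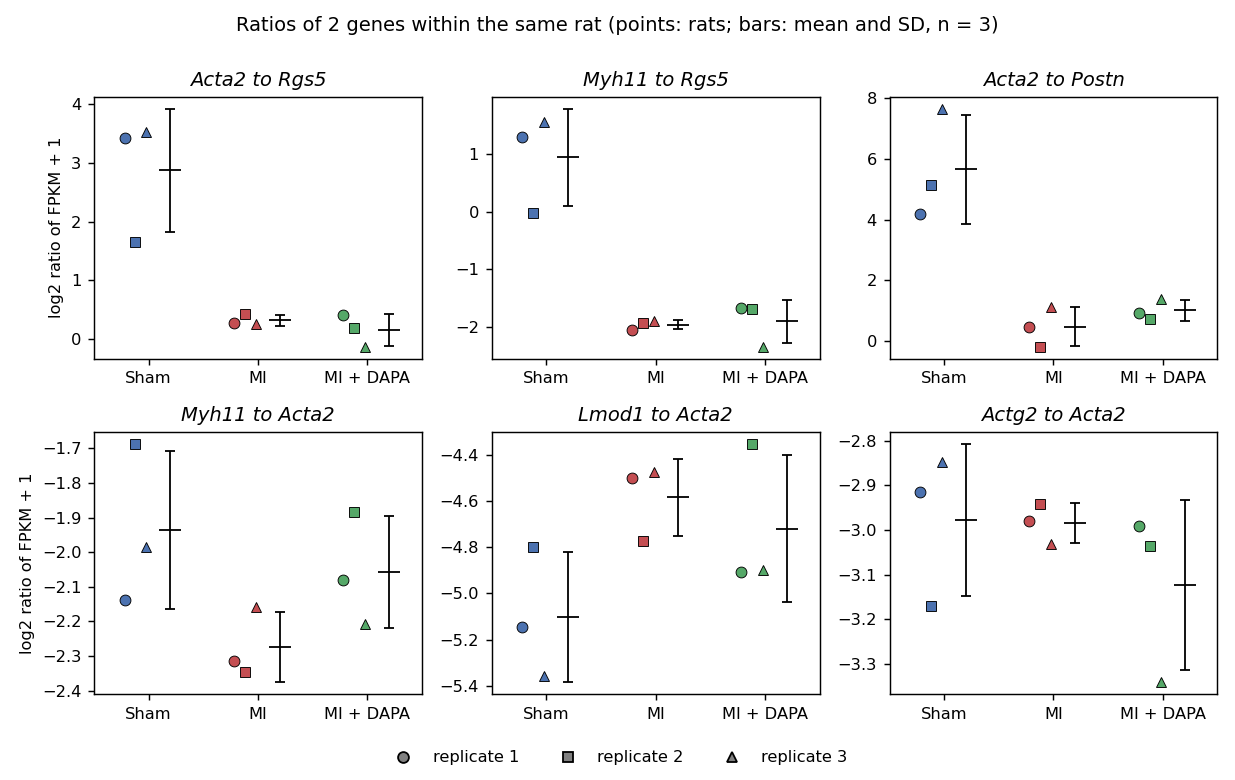
Log2 ratios of FPKM + 1 of 2 genes within the same rat in the 3 groups (circle, square and triangle for replicates 1, 2 and 3), with the group mean and SD (n = 3). The Sham rats lie above the infarcted rats in the ratios of Acta2 and Myh11 to Rgs5 and of Acta2 to Postn, whereas the ratio of Actg2 to Acta2 overlaps in all groups.

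Counts of genes that work with the 8 are read against the 12.1% of all genes called higher and the 10.3% called lower in MI vs. Sham. Of 19 partners of the contractile apparatus tested in MI vs. Sham, 3 were higher and 0 were lower by limma, with a median log2 fold change of 0.28. Higher were Myh10, a non-muscle myosin heavy chain (2.07), Synpo2, an actin-bundling protein (1.36), and Itga8 (1.44). Myh10 had 5.41, 3.74 and 2.81 FPKM in group Sham and 23.5, 20.2 and 15.5 in group MI. Ilk, integrin-linked kinase, stood at -0.74 and was not called. Of the 13 genes of light chain phosphorylation tested, 0 were higher and 1 was lower, Ppp1r12c, a targeting subunit of a myosin phosphatase (-1.09). Ppp1r12a, the main targeting subunit in smooth muscle, stood at -0.79 and Arhgef1, an activator of Rhoa, at -0.78, both under the fold threshold. Without Sham replicate 2, Itga8 stood at 0.99 and was not called, and the other calls of both lists were made again. Scaled to all recovered reads, all genes had a median of 0.92, and 44.7% of them were called higher and 2.11% lower. On that scale 15 of the 19 partners were higher, with a median of 1.37. Of the 13 genes of light chain phosphorylation 4 were higher and 0 lower by limma, a smaller share higher than among all genes, with Ppp1r12c at 0.0038. In MI + DAPA (1st d) vs. MI, 0 of 19 and 0 of 13 were called.

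The regulators showed 1 gene higher and 1 lower among 9 tested in MI vs. Sham. The lower one, Klf5, passed the filter through group Sham alone. Mrtfa, the actin-sensing coactivator of SRF, rose by 1.13, from 2.60, 2.98 and 2.49 FPKM in group Sham to 6.52, 9.65 and 5.50 in group MI. Klf5, a zinc finger factor of smooth muscle, stood at -1.02. It had 2.30, 2.09 and 1.03 FPKM in group Sham and 0.35, 0.43 and 0.28 in group MI. With all MI rats under the FPKM of 1 that the filter asks for, it could only come out lower, so its call shows nothing further. Elk1, which competes with myocardin for SRF, stood at 0.55. Srf itself had 17.5, 9.85 and 19.3 FPKM in the Sham rats and 15.2, 18.0 and 14.6 in group MI, at a log2 fold change of 0.08. Like 7 of the 8 genes it was lowest in Sham replicate 2, but Myocd, myocardin, was highest there at 2.35 FPKM beside 1.88 and 1.43. Neither was called, and both were picked after their values were seen. Mrtfa was also called higher without Sham replicate 2 (1.18) and on the scale of all recovered reads (1.95). Klf5 was left out of both fits because it then reached an FPKM of 1 in fewer than 3 rats.

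Among the 15 paralogs tested, which are the related genes of striated muscle and of all cells, 4 were higher and 1 lower in MI vs. Sham. Acta1, the skeletal alpha-actin, was higher by 2.43, Myh7, the beta cardiac myosin, by 1.68, Cnn2, a calponin of non-muscle cells, by 1.36, and Myh10 as above, while Myh6, the alpha cardiac myosin, fell by 2.43. The other 10 were not called, among them Actc1, the cardiac alpha-actin (0.86), Actb, the beta-actin of all cells (0.39), and Cnn3, another calponin (0.07), which were picked after their values were seen. Without Sham replicate 2, 5 were higher and 1 lower, Smtnl2, a smoothelin-like gene, being added at 1.00. Scaled to all recovered reads, 9 were higher and 1 lower, where 44.7% of all genes were higher. Acta1 had 57.6 to 129 FPKM in the Sham rats, and in the infarcted rats it ranged from 143 FPKM in MI replicate 2 to 2509 in DAPA replicate 1, where Acta2 had 219 and 261.

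Markers of fibroblasts and myofibroblasts were higher after infarction. Of 10 myofibroblast markers outside the contractile genes, 8 were higher and 0 lower in MI vs. Sham, with a median log2 fold change of 3.03. Col1a1 and Col3a1, the main fibrillar collagens, were higher by 5.44 and 4.53, and Cthrc1, a secreted protein of activated fibroblasts, by 4.12. The summed level of the 10 markers was 121.2 to 324.5 FPKM in Sham rats, 2705 to 5857 in MI rats and 1385 to 2915 with DAPA, while the 8 genes summed to 520.1 to 1809, 697.3 to 926.7 and 685.9 to 940.4 FPKM. Most of the marker sum was Col3a1 and Col1a1, which averaged 2827 and 1018.5 FPKM in group MI, where Fap averaged 19.3 and Tnc 4.20. Resident fibroblast markers were higher in 5 of 5 cases, among them Pdgfra by 2.81, Dpt by 2.43 and Dcn by 1.499. All of the defining markers Col1a1, Col3a1 and Pdgfra were above 0 in every rat, and Cthrc1 was at 0 in Sham replicate 2.

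Mural and vessel markers were mixed. Of 10 pericyte and mural cell markers, 2 were higher, Rgs5 and Pdgfrb (1.02), and 1 was lower, Higd1b (-1.29), while Notch3, a receptor of mural cells, stood at 0.94 under the fold threshold. Of 5 endothelial markers tested, 3 were lower: Egfl7 by -2.55, Kdr by -1.91 and Cdh5 by -1.42. Cardiomyocyte markers gave 3 of 9 lower, Myh6, Tnni3 (-2.32) and Mybpc3 (-1.62), and leukocyte markers 4 of 5 higher, among them Lyz2 (3.58), Cd68 (2.65) and Ptprc (1.66). The summed levels were 301.1 to 316.1 FPKM for the mural list in group Sham and 366.6 to 528.2 in group MI, but 254.5 to 279.4 and 203.8 to 303.1 without Rgs5, and 758.3 to 841.5 and 188.7 to 248.9 for the endothelial list. Of the endothelial list, Cldn5 was at 0 in all rats. Leaving out Sham replicate 2 gave the same counts for the myofibroblast, resident fibroblast, mural and leukocyte lists, 2 lower cardiomyocyte markers and 4 lower endothelial markers. On the scale of all recovered reads 44.7% of all genes were called higher and 2.11% lower. There 10 of 10 myofibroblast markers and 5 of 10 mural markers were higher, the latter near that share. Higd1b stood at -0.22, and 1 of 5 endothelial markers was lower, Egfl7. Of the 9 cardiomyocyte markers 2 were higher on that scale (Actc1 and Atp2a2) and 2 lower (Myh6 and Tnni3), with a median of 0.51. In MI + DAPA (1st d) vs. MI, where 0 of the 8 genes were called, all 9 cardiomyocyte markers had positive log2 fold changes with a median of 1.29, and Myl2, a ventricular light chain also listed among the paralogs (1.59), and Tnni3 (1.56) were higher. All 10 myofibroblast markers were negative with a median of -0.79, and Col1a1 was lower (-1.15). All 5 leukocyte markers were negative with a median of -0.98, and Cd3e, a T cell receptor subunit, was lower (-1.85). None of these calls passed adjustment (limma with Benjamini-Hochberg adjusted p = 0.56 for each), and 0 genes of the mural, resident fibroblast, endothelial and regulator lists were called by limma. MI replicate 2 was the extreme MI rat in the cardiomyocyte sum, with 1533 FPKM beside 3973 and 7533. It was so too in the leukocyte sum (2152.5 beside 1192 and 1254) and the myofibroblast sum (5857 beside 4310 and 2705). Without that rat 0.858% of all genes were called in this comparison, against 2.06% with it. The part of these cell types in the levels of the 8 genes was not tested.

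**Figure D5:**
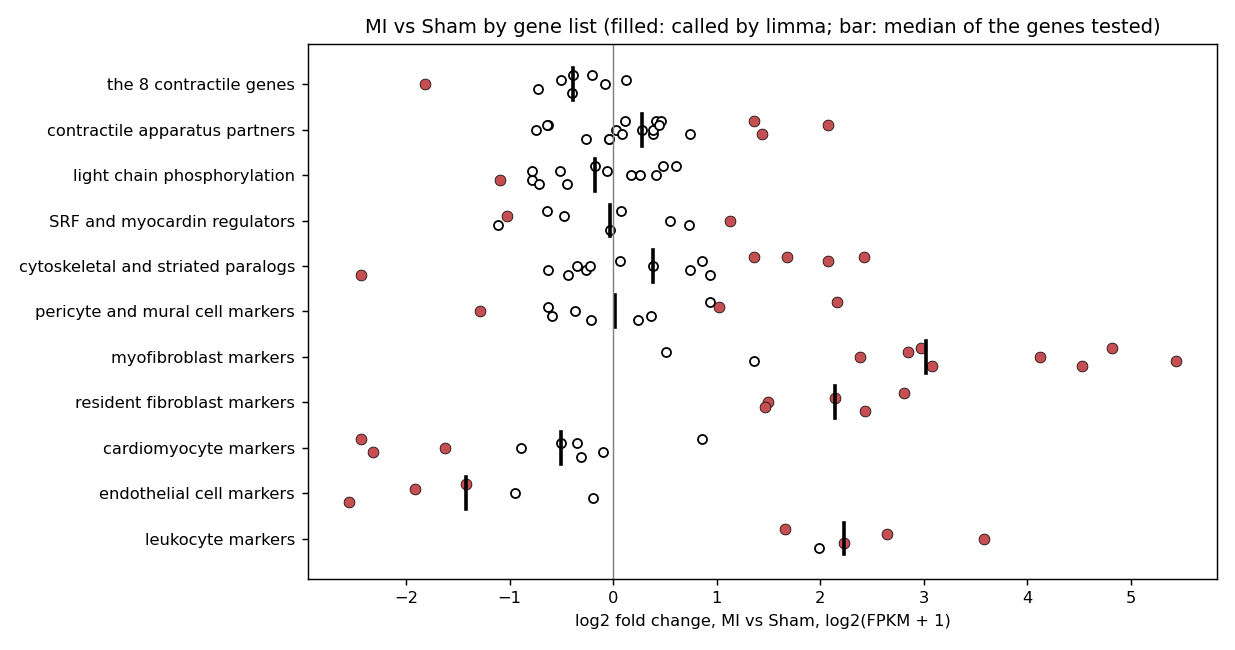
Log2 fold changes in MI vs. Sham on log2(FPKM + 1) for every tested gene of the 8 contractile genes and 10 other lists (filled points called by limma, open points not called, vertical bars the median of each list). The 8 genes have a median of -0.39 with Smtn as the filled point, and the myofibroblast markers a median of 3.03.

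Within groups, the 8 genes varied together except Smtn. Deviations from the group mean were taken for each rat, and each gene was set against the mean of the other 7 over 9 rats that share a library per rat, as a description. Pearson's r was between 0.95 and 0.98 for Acta2, Tagln, Cnn1, Myh11, Actg2, Myl9 and Lmod1, and -0.44 for Smtn. Without Sham replicate 2 it was between 0.59 and 0.86 for the 7 genes and -0.15 for Smtn over 8 rats. Against the mean of the cardiomyocyte markers, Smtn had an r of 0.69 over 9 rats and 0.73 over 8, and the other 7 lay between -0.23 and 0.08 over 9 rats and between -0.44 and 0.58 over 8. Against the leukocyte markers, Smtn stood at -0.80 over 9 rats and -0.84 over 8, and the other 7 between -0.08 and 0.07 over 9 rats and between -0.50 and -0.06 over 8. Against the endothelial markers, the other 7 lay between 0.68 and 0.85 over 9 rats and between -0.25 and 0.42 over 8, and Smtn at -0.36 and -0.03. For the contractile partners these 7 gave 0.86 to 0.98 over 9 rats and 0.37 to 0.97 over 8. For the light chain phosphorylation genes they gave 0.88 to 0.98 and 0.29 to 0.89. Pericyte and mural markers gave 0.23 to 0.43 over 9 rats, and myofibroblast markers 0.39 to 0.61. Smtn stood at 0.47 and -0.56 against those markers.

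Genes outside the list that deviated most like the 8 over 9 rats were Ube2q2l, Yrdc, Tnfsf12, Psme3, Rnf187, Serinc3, Sgsm1, RGD1559896, AABR07039153.2 and 1 locus without a name. All 10 were lower in Sham replicate 2 than in both other Sham rats, as were 34.9% of all genes. The 10 were chosen for likeness to genes mostly low in that rat, so this followed largely from the choice. Of all 14157 genes 1.00% had an r over 0.9 with the 8 genes, and without that rat 0.480% did. Without Sham replicate 2, the 10 genes had an r between 0.55 (AABR07039153.2) and 0.94 (Serinc3), 2 of them over 0.9, and the 10 genes then most alike shared 0 with the 10 above.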

How the data were processed

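The authors deposited FPKM per gene and rat, already divided by gene length and a denominator of each library. The submitters' processing notes name HISAT2 2.0.5, StringTie 1.3.3b, featureCounts 1.5.0-p3 and DESeq2; the genome build is not given in the sources used here. Whole reads were recovered from the FPKM steps for 18896 of 18896 genes with a value in at least 4 rats (tolerance 0.01), which gave each library's depth. Because FPKM are not counts, limma 3.58.1 in R 4.3.3 was run on log2(FPKM + 1) with trend, only the 2 groups compared, and genes that reached an FPKM of 1 in 3 or more of the 6 rats fitted; this scale understates changes of low genes. Fold changes, p-values and calls cover all genes tested, and all 8 genes passed the filter. Python 3.11.15 with numpy 2.4.6, pandas 2.3.3, scipy 1.17.1 and matplotlib 3.10.9 served for the rest. Scripts were tested on simulated data. Counting intervals cover counting error only. The number of value columns not used was 0. The 8 genes and the lists were chosen with earlier results of these data known. From each list, the 3 genes with the smallest p in MI vs. Sham were named, and the 10 genes most alike to the 8 within groups. Alternatives were a pseudocount of 0.1, no filter, a mean FPKM of at least 5, a joint fit of the 9 rats, replicate numbers as a block, other scalings, other thresholds and each rat left out. Promoter windows were matched by gene symbol.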

Additional observations from a re-analysis of the deposited data

How the results depend on the processing

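Calls of the 8 genes by limma did not move with a pseudocount of 0.1, no filter, a mean FPKM of at least 5, median-of-ratios scaling, scaling to reads outside the mitochondrial genome, all 9 rats in 1 fit or adjusted p-values with the fold threshold. Scaled to all recovered reads, 5990 genes were higher and 283 lower in MI vs. Sham, against 1634 and 1390 on the deposited scale. The log2 fold changes turned positive in MI vs. Sham for Acta2 (0.72), Tagln (0.61), Cnn1 (0.97), Myh11 (0.37), Actg2 (0.68) and Myl9 (0.90). With DAPA against Sham they did so for Acta2 (0.45), Tagln (0.37), Cnn1 (0.79), Myh11 (0.31), Actg2 (0.27), Myl9 (0.75) and Lmod1 (0.70), where 0 of the 8 genes and 35.5% of all genes were called. In MI + DAPA (1st d) vs. MI they turned negative for Cnn1 (-0.18), Myh11 (-0.056) and Myl9 (-0.15), and for Cnn1 also with mitochondrial genes left out (-0.016). With all recovered reads and Sham replicate 2 left out, a combination chosen after seeing the data, 0 of the 8 genes were called in either comparison with group Sham. Of all genes 48.3% were called in MI vs. Sham and 36.4% with DAPA against Sham in that setting. Acta2 (0.088), Cnn1 (0.24) and Myl9 (0.53) turned positive in MI vs. Sham. In the DAPA-treated rats against Sham, Cnn1 (0.060), Myl9 (0.38) and Lmod1 (0.25) did. The scaling itself moves these values, since the mitochondrial share differs between groups.

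With single rats left out, 1 to 5 genes were called in MI vs. Sham and as many with DAPA against Sham, 5 without Sham replicate 2. The log2 fold changes ranged in MI vs. Sham from -1.05 to 0.0033 for Acta2, -0.87 to 0.39 for Cnn1, -1.16 to 0.029 for Actg2, -0.61 to 0.12 for Myl9 and -0.39 to 0.50 for Lmod1, in MI + DAPA (1st d) vs. MI from -0.17 to 0.17 for Acta2, -0.22 to 0.13 for Tagln and -0.10 to 0.17 for Cnn1, and with DAPA against Sham from -0.83 to 0.43 for Cnn1, -0.54 to 0.19 for Myl9 and -0.57 to 0.31 for Lmod1. Ratios without overlap numbered 0 to 4 in MI + DAPA (1st d) vs. MI (0 with all rats; 4 without MI replicate 3) and 4 to 7 in MI + DAPA (1st d) vs. Sham (7 without Sham replicate 2). The replicate numbers did not pair the rats, with correlations of same-numbered rats between -0.30 and 0.19, and with the replicate block 1, 0 and 1 genes were called, as without it.

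With 3 rats per group, an exact permutation test of a single ratio cannot pass 0.05. Smtn has several isoforms, which gene-level values do not separate.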
